A study of Homo sapiens with 6 samples.

Results

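MDA-MB-231 cells given the hsa-miR-205-5p precursor were compared directly with MDA-MB-231 cells given the hsa-miR-214-3p precursor. MDA-MB-231 is an established human breast cancer line. The study introduced synthetic pre-miR molecules from Ambion at 30 nM by reverse transfection with a Lipofectamine reagent, used a scrambled pre-miR as negative control, and placed RNA collection at 72 h. Each RNA was labeled with 1 dye and read on its own Agilent whole-genome expression array, 2 arrays per group and 6 in all. Arrays were chosen by their labels: the 4 arrays of both precursors enter the comparison, and the 2 scrambled-control arrays are printed beside them as background only. What the comparison shows is how the cells differ between the precursors, and a gene that both precursors move alike does not appear in it.

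MicroRNAs are short RNAs that pair with messenger RNAs, mostly through a stretch near their 5′ end called the seed, and lower the stability or translation of those messages. miR-205 is abundant in epithelial tissues, where it has been linked to repression of ZEB1 and ZEB2, and miR-214 is transcribed within DNM3OS, a long non-coding RNA gene on the strand opposite to DNM3. The arrays used here do not measure the mature miRNAs.

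The mature sequences are shown because their seeds decide which messages each precursor can pair with. They are from RefSeq GRCh38.p14, at chr1:209432166-209432187 for hsa-miR-205-5p and chr1:172138816-172138837 for hsa-miR-214-3p, on opposite strands of chromosome 1, and capitals mark the seed, bases 2 to 8.
hsa-miR-205-5p: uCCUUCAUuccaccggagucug
hsa-miR-214-3p: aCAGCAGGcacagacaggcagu
The seeds have 1 base in common at the same position, and the message sites that match them, AUGAAGG and CCUGCUG, differ accordingly. Among mature human miRNAs of the same release, 0 others carry the hsa-miR-205-5p seed, while hsa-miR-3619-5p and hsa-miR-761 carry that of hsa-miR-214-3p. The host gene DNM3OS read −2.17 and −1.12 with hsa-miR-205-5p, −0.90 and −0.66 with hsa-miR-214-3p and −0.66 and −1.32 in the scrambled control, and its difference of −0.87 was not called, with an adjusted p of 0.136 in limma. No probe was matched to MIR205HG, the host gene of the other miRNA.

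Each array held 58717 spots other than controls. Spots well above background made up 37.8% and 35.4% with hsa-miR-205-5p and 39.5% and 38.5% with hsa-miR-214-3p, against 40.7% and 42.2% in the scrambled control, and 0 spots were saturated. Values are log2 of the processed intensity minus the 75th percentile of the array, so 0 marks that percentile, and a pair of values always gives replicate 1 and then replicate 2. The filter asked for signal well above background on each array of 1 precursor or the other, which left 17439 probes and 11524 genes with a symbol, each gene read by its brightest kept probe. A difference is the log2 value with hsa-miR-205-5p less that with hsa-miR-214-3p. A gene that fell was lower with hsa-miR-205-5p than with hsa-miR-214-3p, which does not say which group moved from the control. A gene is called lower or higher with hsa-miR-205-5p when limma gives it an adjusted p under 0.05 and a difference of at least 2-fold. All 6 arrays lay on 1 slide and were scanned together, but both hsa-miR-205-5p arrays sat in one region of it and both hsa-miR-214-3p arrays in another, so an effect of slide position and an effect of the precursor cannot be told apart. Nothing in the labels says whether replicates came from separate cultures, and p-values here measure only the spread between these samples.

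Markers of the line were present on all 4 arrays. Of 10 genes typical of MDA-MB-231 and other basal-like lines, all 10 were tested, and VIM, which encodes vimentin, read 7.49 and 7.52 with hsa-miR-205-5p, 7.47 and 7.63 with hsa-miR-214-3p and 7.64 and 7.58 in the scrambled control. That is high and nearly equal in all groups. FOSL1 alone of these genes was called (10%, against 13.1% of all genes), lower at 3.08 and 2.96 with hsa-miR-205-5p against 4.29 and 3.94 with hsa-miR-214-3p. Among luminal markers, ESR1, PGR and FOXA1 were too dim to test. TFF3, a secreted trefoil peptide, read 5.37 and 5.38 with hsa-miR-205-5p, 8.02 and 8.01 with hsa-miR-214-3p and 8.43 and 8.08 in the scrambled control, so both controls were near hsa-miR-214-3p and only hsa-miR-205-5p was low, with the groups far apart. Its difference was −2.64 (standard error 0.09, adjusted p = 0.0022) in limma, and 3 probes of the gene ran from −3.64 to −2.34. TFF1 fell too, by 1.87, while ERBB3 and KRT19 were higher by 1.09 and 1.20. Of 9 luminal markers tested, 2 (22.2%, against 13.1% of all genes) were called lower, 2 higher (22.2%, against 10.4%) and 5 in neither direction, with a median of 0.29. In 6 (66.7%, against 46.2% of all genes) both hsa-miR-205-5p arrays lay above both hsa-miR-214-3p arrays, and in 2 (22.2%, against 35.5%) below them, so both TFF genes went against most of the list. Of 8 fibroblast and 6 endothelial genes, 0 passed the filter, and among leukocyte genes PTPRC and CD3E were also too dim, while LYZ matched no probe. Of 4 leukocyte genes that were tested, 1 (25%, against 13.1% of all genes) was called lower and 0 higher (against 10.4%). CD68 was the lower gene, at 1.90 and 2.25 with hsa-miR-205-5p, 3.29 and 3.25 with hsa-miR-214-3p and 2.82 and 3.43 in the scrambled control. CD14, TYROBP and CD52 were not called at 0.62, 0.79 and 0.84.

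Between the groups, limma called 1506 of 11524 genes lower with hsa-miR-205-5p (13.1%) and 1193 higher (10.4%), with 8825 in neither direction. Over all kept probes 2409 were lower and 1753 higher. The median difference over all genes was 0.11. Without regard to a test, both hsa-miR-205-5p arrays lay below both hsa-miR-214-3p arrays in 4094 genes (35.5%) and above them in 5326 (46.2%), and the arrays overlapped in 2104.

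The balance between lower and higher depends on the scaling. Scaling each array to its median shifts every difference by about −0.22, so the median over all genes becomes −0.11, and 73.5% of called genes are then lower, against 55.8% with the 75th percentile. List medians are therefore given against the all-gene median of 0.11, and a median that changes sign with the scaling is marked where it is printed. Medians also moved between fits without a change of sign, and not all of these moves are given. Spike-in RNAs, which do not come from the cells and are read by 10 E1A probes, differed between the precursors by −0.35 to 0.60 after the same scaling. Replicates of hsa-miR-205-5p were further apart (0.474, the root mean square difference over kept probes) than replicates of hsa-miR-214-3p (0.295). Both were closer than the scrambled-control pair at 0.676. With limma the median standard error of a gene was 0.126, and 0.0022 was the smallest adjusted p.

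**Figure D1:**
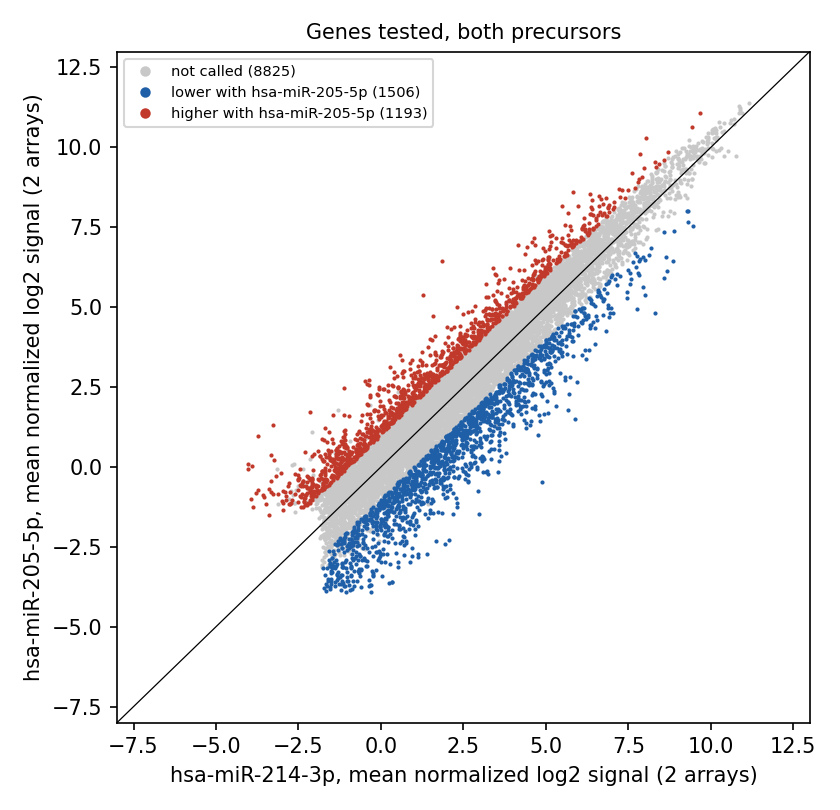
Each point is a gene, with its mean log2 value with hsa-miR-214-3p on the horizontal axis and with hsa-miR-205-5p on the vertical axis. The 1506 genes called lower lie below the diagonal and the 1193 called higher above it.

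AP1M2, an epithelial subunit of the AP-1 clathrin adaptor, was the furthest apart of the lower genes that were bright on all 4 arrays. It read −0.64 and −0.31 with hsa-miR-205-5p, 4.67 and 5.11 with hsa-miR-214-3p and 3.07 and 4.08 in the scrambled control. Both hsa-miR-205-5p arrays were low, both hsa-miR-214-3p arrays high and both controls in between, and in limma the difference was −5.36 (standard error 0.22, adjusted p = 0.0022). SSR2, part of the complex that helps move new proteins into the endoplasmic reticulum, gave 1.64 and 1.34 with hsa-miR-205-5p, 5.87 and 5.90 with hsa-miR-214-3p and 4.16 and 5.45 in the scrambled control. The order of the groups was the same, with a difference of −4.39. PSMD13 of the proteasome cap, the cold-induced RNA-binding protein gene RBM3 and the RNA helicase gene DDX24 differed by −3.89, −3.75 and −3.69, although another probe of RBM3 gave only −1.27. For NXF1, the main export receptor of messenger RNA, the arrays read −0.14 and −0.18 with hsa-miR-205-5p, 3.58 and 3.48 with hsa-miR-214-3p and 2.44 and 3.09 in the scrambled control, and its difference was −3.69. The α-tubulin gene TUBA1A was bright on every array, at 4.82 and 4.83 with hsa-miR-205-5p, 8.24 and 8.40 with hsa-miR-214-3p and 7.37 and 8.04 in the scrambled control, and still −3.49 apart, without overlap. SNORA70B, ORC6 and C8orf33 completed the 10 furthest apart at −3.54, −3.48 and −3.44.

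In the other direction the glycosyltransferase gene B3GNT3 led. It read 6.18 and 6.69 with hsa-miR-205-5p, 1.75 and 1.98 with hsa-miR-214-3p and 4.19 and 3.65 in the scrambled control, so that hsa-miR-205-5p was above and hsa-miR-214-3p below both controls, and limma put the difference at 4.57 (standard error 0.22, adjusted p = 0.0022). IL23A, the p19 chain of interleukin 23, read 5.38 and 5.37 with hsa-miR-205-5p, 1.25 and 1.32 with hsa-miR-214-3p and 1.50 and 1.34 in the scrambled control. Here hsa-miR-214-3p sat with the controls, and only hsa-miR-205-5p was high, by 4.09. ACOXL, IL1RN and KRTAP2-3 also had controls nearer to hsa-miR-214-3p and were 3.18, 3.08 and 2.94 higher. NMB, which encodes neuromedin B, showed the reverse layout at 4.81 and 4.61 with hsa-miR-205-5p, 1.50 and 1.65 with hsa-miR-214-3p and 4.18 and 4.30 in the scrambled control. The controls were close to hsa-miR-205-5p, only hsa-miR-214-3p was low, and the difference was 3.14. SLC45A3 and F2RL3, a thrombin receptor gene, also had controls near hsa-miR-205-5p, with 2.74 and 2.44 with hsa-miR-205-5p against −0.34 and −0.53 with hsa-miR-214-3p for SLC45A3 and 2.67 and 2.45 with hsa-miR-205-5p against −0.29 and −0.45 with hsa-miR-214-3p for F2RL3. IL24 and CD276 were 2.87 and 2.83 higher, and a further CD276 probe gave 1.15.

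**Figure D2:**
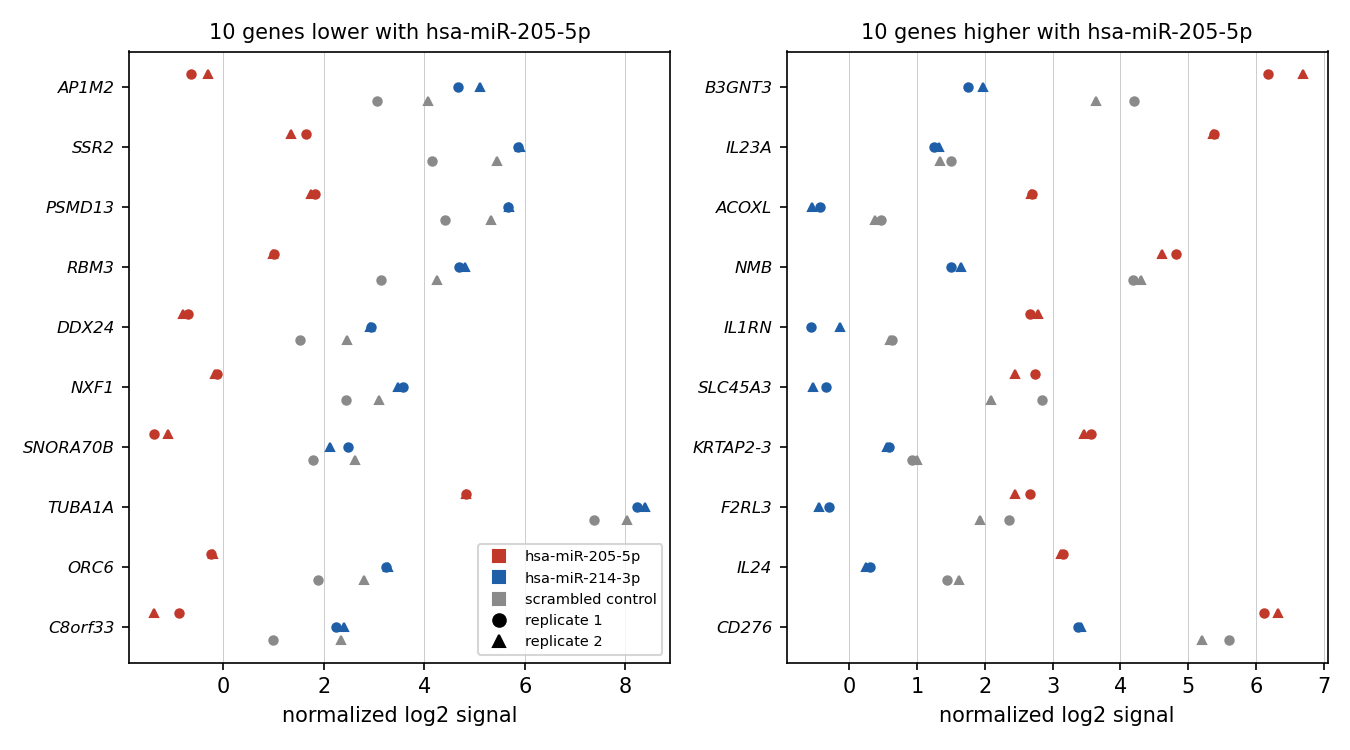
Log2 values of each of the 6 arrays for the genes furthest apart in either direction among those bright on all 4 arrays compared. AP1M2 spans −5.36 and B3GNT3 spans 4.57 between the precursors, and the scrambled control falls near either precursor depending on the gene.

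For many called genes the dim side was near background, and only a lower limit can be given. Of 1506 lower genes, 1078 were well above background on both hsa-miR-205-5p arrays, 141 on 1 array and 287 on neither. The same counts for the hsa-miR-214-3p arrays of the 1193 higher genes were 1030, 62 and 101. Signal on all 4 arrays was present in 10267 genes, of which those 1078 were lower and 1030 higher. List counts for genes with signal on all 4 arrays belong beside these counts. Among the 287 lower and 101 higher genes with neither array of the dim side well above background, the limit itself was at least 2-fold in 128 and 78. TTC4, a co-chaperone gene, read −1.77 and −2.79 with hsa-miR-205-5p, 2.00 and 2.14 with hsa-miR-214-3p and 0.50 and 1.81 in the scrambled control, and was at least 12.8-fold lower. SNORA70C, the troponin C gene TNNC1, UNKL and ZNF3 were lower by at least 9.67, 8.13, 7.09 and 6.62-fold. On the higher side IFNL2, an interferon λ gene, gave 1.67 and 1.74 with hsa-miR-205-5p, −2.02 and −2.26 with hsa-miR-214-3p and −0.96 and −1.07 in the scrambled control, which is at least 12.6-fold. CRB3, a polarity protein of epithelial cells, read 1.34 and 1.31 with hsa-miR-205-5p, −3.27 and −3.25 with hsa-miR-214-3p and −2.00 and −2.67 in the scrambled control. Only hsa-miR-205-5p was high there, by at least 9.98-fold. LTB, CDS1 and KRTAP7-1 followed with limits of 7.87, 5.24 and 5.17-fold.

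Some of the brightest messages were called too. GAPDH read 7.58 and 7.47 with hsa-miR-205-5p, 9.43 and 9.51 with hsa-miR-214-3p and 9.07 and 9.37 in the scrambled control, low with hsa-miR-205-5p alone, and differed by −1.94 (standard error 0.11, adjusted p = 0.00236) in limma. TMSB10, RPL29, RPS14 and PPIA fell by 1.65, 1.51, 1.31 and 1.26. PPIA, the gene of cyclophilin A, had 5 probes from −2.43 to −0.21, and its scrambled-control replicates were 7.97 and 9.36, so that gene was unsteady in the controls as well. Of the 5 brightest higher genes GRN, which encodes progranulin, was furthest apart at 2.25. AP2S1, an adaptor subunit of clathrin-coated vesicles, read 11.08 and 11.03 with hsa-miR-205-5p, 9.64 and 9.71 with hsa-miR-214-3p and 10.68 and 10.12 in the scrambled control. It was lowest with hsa-miR-214-3p, without overlap. AP2S1, KRT19, RANGAP1 and NKX2-5 were 1.39, 1.20, 1.18 and 1.04 higher.

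Genes with several kept probes show how far a call rests on the probe chosen. Of 263 such lower genes, 103 (39.2%) had every probe called, 49 (18.6%) had a probe on the other side of 0, and 2 had a probe called the opposite way. Among 208 higher genes the counts were 40 (19.2%), 74 (35.6%) and 23. Of 2015 uncalled genes with several kept probes, 505 had a probe that was called, so an absent call can rest on the probe as well. Among genes with at least 3 kept probes, every one of them called, HSD17B7, TFF3, MANBAL, TUBB and GALM were the lower genes furthest apart by the median of their probes. No HSD17B7 probe had signal on both hsa-miR-205-5p arrays, so its place rests on limits. GALM gave −1.72 and −2.58 on probes with signal on all 4 arrays, and its other probe was near background with hsa-miR-205-5p. ENTREP3, CSF1, PTPN14, KTN1-AS1 and GPAT2 were the higher genes that met the same rule, with 3 CSF1 probes from 1.05 to 2.42, though only 1 of 3 KTN1-AS1 probes had signal with hsa-miR-214-3p. OAS2, by contrast, had probes called in both directions. Its brightest probe gave 1.34, and its lower probes had signal on 1 of 2 hsa-miR-205-5p arrays.

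The mean of both controls is placed beside the precursors here as a description only. Its replicates were 0.676 apart, further than either precursor pair, and slide position follows the precursor. No such share over all genes is given for comparison, and called genes were chosen for a gap between the precursors. A control mean between the precursors is then more likely, so the shares below describe called genes only. In 1229 of the lower genes (81.6%) and 963 of the higher genes (80.7%), the scrambled mean lay between both precursors. It was nearer to hsa-miR-214-3p in 1236 lower genes (82.1%), as for TXNRD1 and GAPDH. Among higher genes the split was more even, at 665 (55.7%). IL23A and CDH1 are examples with the control near hsa-miR-214-3p, and NMB, ABR and SCAMP3 examples with it near hsa-miR-205-5p. Over the kept probes, each hsa-miR-205-5p array was 0.746 or 0.808 from control replicate 1 and 1.00 or 1.05 from control replicate 2. The hsa-miR-214-3p arrays were 0.739 and 0.755 from the former and 0.566 and 0.610 from the latter. Control replicate 1 was thus about as far from either precursor, and only replicate 2 was clearly nearer to hsa-miR-214-3p.

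Of 25 tested genes reported elsewhere as miR-205 targets, 6 (24%, against 13.1% of all genes) were called lower, 2 higher (8%, against 10.4%) and 17 in neither direction, and their median was −0.52 against 0.11 over all genes. TXNRD1 among them is also in the study's primer table and networks, chosen on these samples. In 17 of the genes (68.0%) both hsa-miR-205-5p arrays lay below both others, against 35.5% of all genes. TXNRD1, thioredoxin reductase 1, read 0.33 and 0.26 with hsa-miR-205-5p, 3.05 and 3.14 with hsa-miR-214-3p and 2.81 and 3.52 in the scrambled control. It was low with hsa-miR-205-5p alone and the difference was −2.80 (standard error 0.10, adjusted p = 0.0022) in limma. ITGA5, the α5 integrin chain, read 2.23 and 2.16 with hsa-miR-205-5p, 4.34 and 4.34 with hsa-miR-214-3p and 3.61 and 3.83 in the scrambled control, again lowest with hsa-miR-205-5p without overlap, by −2.15. ACSL1, INPPL1 and PRKCE fell by 2.06, 1.55 and 1.49, and MED1 by 2.49 although well above background on 1 of 2 hsa-miR-205-5p arrays. In MED1, ACSL1 and PRKCE the control replicates were more than 1 apart, at 0.09 and 1.34 in MED1 and 0.28 and 1.80 in ACSL1.

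ZEB1 and ZEB2, repressors of epithelial genes, were not called on their brightest probes. ZEB1 read 3.15 and 3.31 with hsa-miR-205-5p, 3.86 and 3.90 with hsa-miR-214-3p and 4.07 and 3.50 in the scrambled control, so hsa-miR-205-5p was the lowest group without overlap, at −0.65, and its second probe gave −0.40. ZEB2 was dim at −2.77 and −1.82 with hsa-miR-205-5p, −1.03 and −1.18 with hsa-miR-214-3p and −2.08 and −1.97 in the scrambled control, near background with hsa-miR-205-5p, and its adjusted p in limma was 0.0535. A second ZEB2 probe, near background with hsa-miR-205-5p as well, was called lower at −1.77 (adjusted p = 0.00728 in limma). Other uncalled targets were LRP1 at −0.82, LAMC1 at −0.77 and E2F1 at −0.20, and another LRP1 probe gave 0.05. VEGFA and ERBB3 were higher with hsa-miR-205-5p. The VEGFA arrays read 4.20 and 4.08 with hsa-miR-205-5p, 2.34 and 2.43 with hsa-miR-214-3p and 4.07 and 3.36 in the scrambled control, with hsa-miR-214-3p the low group, and limma gave 1.76 (standard error 0.11, adjusted p = 0.00248). ERBB3 read 1.32 and 1.20 with hsa-miR-205-5p, 0.05 and 0.29 with hsa-miR-214-3p and 0.04 and 0.07 in the scrambled control, where hsa-miR-205-5p stood above both other groups. Another ERBB3 probe gave −0.68.

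Of 26 reported miR-214 targets tested, 4 (15.4%, against 13.1% of all genes) were called lower, 7 higher (26.9%, against 10.4%) and 15 in neither direction, with a median of 0.27. That median was 0.04 after scaling to the median. In 14 (53.8%, against 46.2% of all genes) both hsa-miR-205-5p arrays lay above both others. They lay below them in 11 (42.3%, against 35.5%), so both shares were above those of all genes. CSF1 and ARL2 are also genes of the study's networks, chosen on these samples. The count of higher genes moved to 3 with normexp and 4 without hsa-miR-214-3p replicate 2, and that of lower genes to 2 with normexp. GALNT7, a glycosyltransferase gene, read 4.13 and 3.94 with hsa-miR-205-5p, 2.47 and 2.46 with hsa-miR-214-3p and 4.05 and 3.75 in the scrambled control. Only hsa-miR-214-3p was low, and the difference was 1.57 (standard error 0.12, adjusted p = 0.00294) in limma. CSF1, the macrophage colony-stimulating factor, read 3.29 and 3.41 with hsa-miR-205-5p, 0.90 and 0.96 with hsa-miR-214-3p and 3.24 and 2.75 in the scrambled control, with the same layout and 2.42. MAP2K3, PSMD10, SUFU and NRAS were 1.59, 1.40, 1.07 and 1.04 higher. NRAS barely passed (adjusted p = 0.0496 in limma), with 2.89 and 2.09 with hsa-miR-205-5p against 1.49 and 1.42 with hsa-miR-214-3p, and its other probe gave −0.35.

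Of the miR-214 targets lower with hsa-miR-205-5p, ING4 read 1.42 and 1.45 with hsa-miR-205-5p, 3.04 and 3.29 with hsa-miR-214-3p and 2.62 and 3.13 in the scrambled control, with hsa-miR-205-5p alone low, by −1.73. DDR1, a collagen receptor gene, fell by 1.28. PLXNB1, a semaphorin receptor gene, was near background on both hsa-miR-205-5p arrays, and so at least 2.29-fold lower, with −3.33 and −2.89 with hsa-miR-205-5p against −0.46 and −0.38 with hsa-miR-214-3p. JAG1, XBP1, EZH2 and CTNNB1 were not called, at −1.08, 0.68, −0.24 and −0.40, and another CTNNB1 probe gave 0.67.

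**Figure D3:**
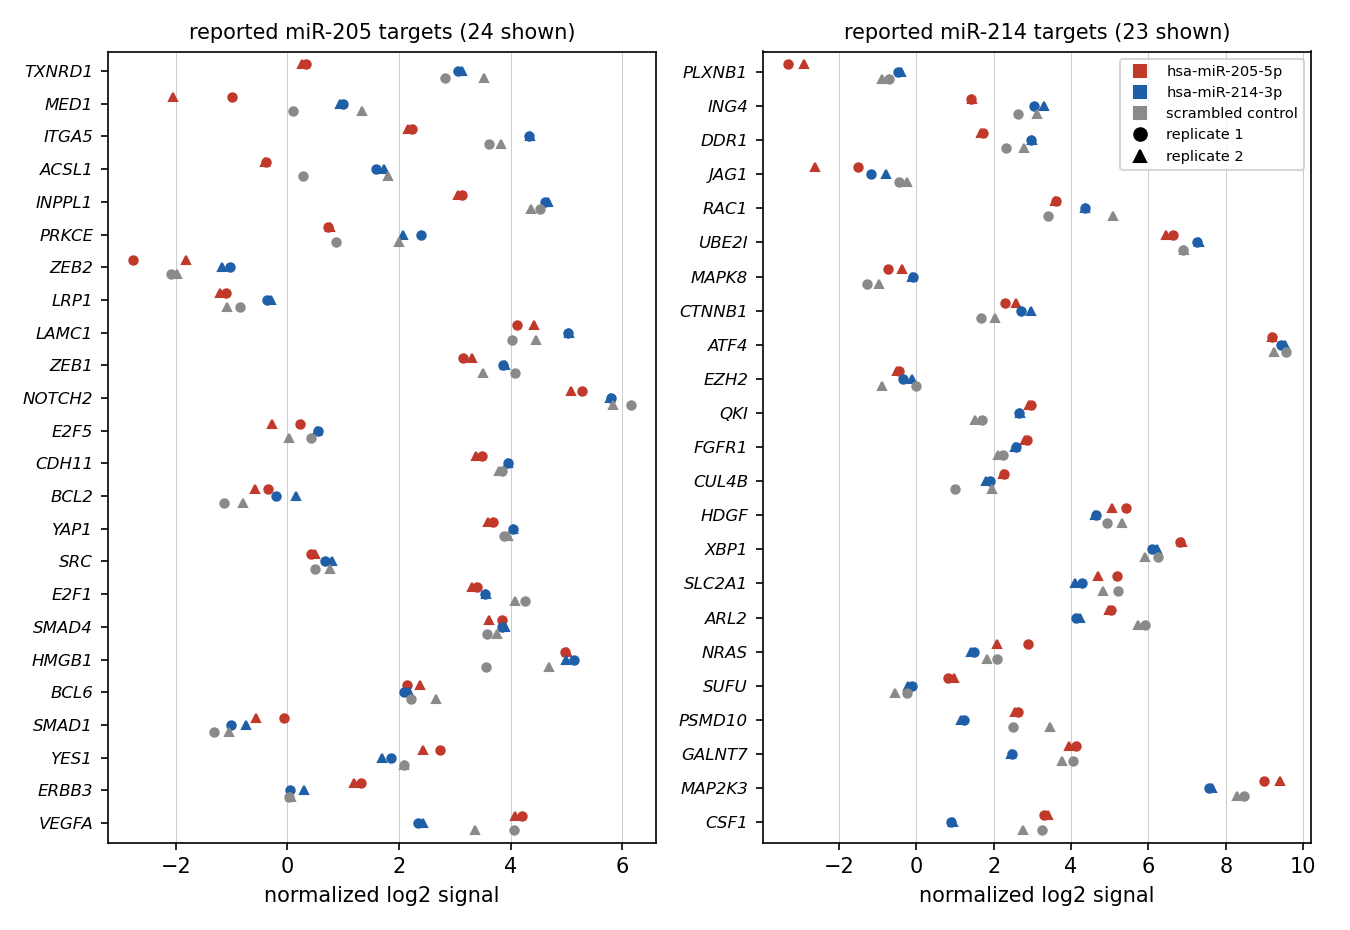
Log2 values of each of the 6 arrays for most reported targets of miR-205 (left) and miR-214 (right), ordered by the difference between the precursors and colored by group. TXNRD1 (−2.80) heads the miR-205 list and VEGFA (1.76) ends it, and CSF1 (2.42) ends the miR-214 list, headed by PLXNB1, which was near background on both hsa-miR-205-5p arrays.

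Genes of the study's primer table were chosen by the study on these samples and are not independent evidence. Of 9 tested, 2 (22.2%, against 13.1% of all genes) were called lower, 5 higher (55.6%, against 10.4%) and 2 in neither direction. SCAMP3, a carrier membrane protein gene, read 8.59 and 8.63 with hsa-miR-205-5p, 5.82 and 5.86 with hsa-miR-214-3p and 8.41 and 7.88 in the scrambled control. It was low with hsa-miR-214-3p only and the difference was 2.77 (standard error 0.10, adjusted p = 0.0022) in limma. ABR read 7.09 and 7.01 with hsa-miR-205-5p, 4.56 and 4.61 with hsa-miR-214-3p and 7.40 and 7.03 in the scrambled control, with the same layout and 2.46. ZDHHC24 and UBE2J1 followed at 2.39 and 1.62, the latter with replicates of 2.03 and 1.09 with hsa-miR-205-5p against 0.01 and −0.13 with hsa-miR-214-3p. BMF, which promotes apoptosis, read −0.95 and −1.08 with hsa-miR-205-5p, 0.46 and 0.43 with hsa-miR-214-3p and 0.88 and 1.12 in the scrambled control. There both precursors were below both controls, hsa-miR-205-5p by more, and the difference between them was −1.46. SNU13 and PSIP1 were not called, at 0.05 and 0.33, and a further SNU13 probe gave −3.36. A further PSIP1 probe, near background with hsa-miR-205-5p, gave −0.33.

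The genes of the study's networks, likewise chosen by the study on these samples and not independent evidence, numbered 24 among those tested. Of these, 11 (45.8%, against 13.1% of all genes) were called lower, 3 higher (12.5%, against 10.4%) and 10 in neither direction, with a median of −0.95, and with normexp the counts were 7 and 1. Of 22 with signal on all 4 arrays, 9 were lower and 3 higher. ITGA3, the α3 integrin chain, read 4.39 and 4.30 with hsa-miR-205-5p, 6.45 and 6.51 with hsa-miR-214-3p and 6.21 and 6.13 in the scrambled control, low with hsa-miR-205-5p alone by −2.13 (standard error 0.10, adjusted p = 0.0022) in limma. POLDIP3, PHF20 and PHB1 fell by 2.33, 1.84 and 1.54, with both probes of PHF20 and of PHB1 called. RIOX2 fell by 2.60 on its brightest probe, while its other probe gave 0.20. VDR, the vitamin D receptor, read 1.54 and 1.34 with hsa-miR-205-5p, −0.62 and −0.60 with hsa-miR-214-3p and 0.52 and 0.71 in the scrambled control, and the control fell between precursors 2.05 apart. ST6GAL1 was 1.69 higher, CDC42EP3 at least 1.6-fold lower, and MKI67 and CCNB1 were not called on their brightest probes.

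The smaller primer table and cytokine lists had the larger shares of higher calls, at 55.6% and 39.1%. Among lists with more than 30 tested genes, all chosen with earlier results known, genes of epithelial junctions and differentiation had most higher calls for their size. Of 37 tested, 4 (10.8%, against 13.1% of all genes) were called lower, 14 higher (37.8%, against 10.4%) and 19 in neither direction, with a median of 0.57. For 30 genes with signal on all 4 arrays the counts were 1 lower and 11 higher, against 1078 and 1030 of 10267 over all genes. With normexp, which called only 722 lower and 436 higher over all genes, the counts were 2 lower and 9 higher. In 24 genes (64.9%) the hsa-miR-205-5p arrays lay above both others, against 46.2% of all genes. CDH1, which encodes E-cadherin, read 0.87 and 0.61 with hsa-miR-205-5p, −1.34 and −1.54 with hsa-miR-214-3p and −1.11 and −1.34 in the scrambled control. Only hsa-miR-205-5p was high, with controls at the level of hsa-miR-214-3p, and the difference was 2.18 (standard error 0.15, adjusted p = 0.00268) in limma. EPCAM read 3.21 and 2.77 with hsa-miR-205-5p, 0.53 and 0.80 with hsa-miR-214-3p and 0.35 and 0.83 in the scrambled control, with the same layout and 2.33. The plakophilin gene PKP3 was bright, at 7.92 and 7.96 with hsa-miR-205-5p, 5.62 and 5.71 with hsa-miR-214-3p and 6.11 and 5.71 in the scrambled control, and 2.27 higher.

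Tight-junction genes of that list were F11R at 2.14, CGN at 2.01 and CLDN4 at 1.21, although another F11R probe gave −0.27. DSP, JUP and CDH3, all of adhesive junctions, were 1.52, 1.40 and 1.74 higher, and CDH3 was well above background on 1 of 2 hsa-miR-214-3p arrays. OCLN was not called, nor were TJP1 and CLDN7 at 0.53 and 0.71. AP1M2 and MUC1 were the outlying lower members. MUC1, a cell-surface mucin gene, read −0.33 and −2.59 with hsa-miR-205-5p, 2.90 and 3.05 with hsa-miR-214-3p and 2.10 and 2.23 in the scrambled control, so its hsa-miR-205-5p replicates were far apart and 1 of 2 was near background, and limma gave −4.44 (standard error 0.81, adjusted p = 0.0163). ELF3 fell by 1.62, also well above background on 1 of 2 arrays, and DSG2 by at least 3.92-fold.

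Of 28 mesenchymal genes tested, 7 (25%, against 13.1% of all genes) were called lower, 1 higher (3.57%, against 10.4%) and 20 in neither direction, with a median of −0.54, and 4 were lower with normexp. TAGLN, an actin-binding protein gene of smooth muscle, read 1.50 and 1.46 with hsa-miR-205-5p, 3.69 and 3.77 with hsa-miR-214-3p and 2.36 and 2.31 in the scrambled control. All groups were apart, with hsa-miR-205-5p lowest and hsa-miR-214-3p highest, and the difference was −2.25 (standard error 0.10, adjusted p = 0.0022) in limma. COL6A2 and COL5A1 fell by 1.11 and 1.01. ITGB1 fell by 1.31, but its control replicates were 3.05 and 4.62 and spanned both precursors. FN1, SNAI1 and SNAI2 were not called at −0.98, −0.87 and −0.21. The collagenase gene MMP1 alone was higher, at 6.17 and 6.17 with hsa-miR-205-5p, 4.31 and 4.39 with hsa-miR-214-3p and 3.98 and 3.90 in the scrambled control, with hsa-miR-205-5p above both other groups by 1.81.

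Of 12 integrins, 4 (33.3%, against 13.1% of all genes) were called lower, 2 higher (16.7%, against 10.4%) and 6 in neither direction: besides ITGA5, ITGA3 and ITGB1, ITGB5 fell by 1.14, while ITGA6 and ITGA1 were 1.52 and 1.69 higher. The laminin receptor chain ITGA6 read 5.80 and 5.47 with hsa-miR-205-5p, 4.18 and 4.06 with hsa-miR-214-3p and 3.80 and 4.04 in the scrambled control. Only hsa-miR-205-5p was high there, and a further probe gave 0.28. For 40 genes of the matrix and its proteases, 6 (15%, against 13.1% of all genes) were called lower, 5 higher (12.5%, against 10.4%) and 29 in neither direction, with a median of −0.16, and the higher count was 2 with normexp and 3 after scaling to the median. TIMP1, an inhibitor of matrix proteases, read 5.07 and 4.85 with hsa-miR-205-5p, 6.89 and 6.89 with hsa-miR-214-3p and 6.62 and 6.95 in the scrambled control. It was low with hsa-miR-205-5p alone by −1.93, and COL4A1 and ADAM17 fell by 1.59 and 1.66. MMP9 was called higher, with signal on 1 of 2 hsa-miR-214-3p arrays, at 0.22 and 0.25 with hsa-miR-205-5p, −1.84 and −1.71 with hsa-miR-214-3p and −1.99 and −2.22 in the scrambled control. LAMB3 and CCN2 were 1.03 and 1.19 higher.

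Of 53 G2 and mitotic genes tested, 16 (30.2%, against 13.1% of all genes) were called lower, 0 higher (against 10.4%) and 37 in neither direction, with a median of −0.73 against 0.11 over all genes. Among 49 with signal on all 4 arrays, 14 were lower. In 44 (83.0%) both hsa-miR-205-5p arrays lay below both hsa-miR-214-3p arrays, against 35.5% of all genes. Scaling to the median raised the lower count to 26, and that over all genes from 1506 to 2024. The medians of the list on each array were 3.42 and 3.24 with hsa-miR-205-5p, 4.37 and 4.32 with hsa-miR-214-3p and 3.78 and 4.36 in the scrambled control. TOP2A, topoisomerase IIα, read 0.48 and 0.38 with hsa-miR-205-5p, 3.79 and 3.82 with hsa-miR-214-3p and 1.63 and 3.97 in the scrambled control, where control replicate 1 was far below replicate 2, and the precursors were −3.38 (standard error 0.10, adjusted p = 0.0022) apart in limma. KIF20A, a kinesin of cytokinesis, read −0.17 and −0.14 with hsa-miR-205-5p, 3.22 and 3.16 with hsa-miR-214-3p and 1.34 and 3.00 in the scrambled control, with the same spread in the controls and −3.34 between precursors. AURKB, a kinase of chromosome segregation, was steadier at 1.21 and 1.25 with hsa-miR-205-5p, 4.40 and 4.38 with hsa-miR-214-3p and 3.35 and 3.74 in the scrambled control. Its difference was −3.16, hsa-miR-205-5p being the low group.

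AURKA, FOXM1, BUB3, KIF4A and TPX2 fell by 3.12, 2.98, 2.92, 2.79 and 2.66. CDC20, an activator of the anaphase-promoting complex, read 3.53 and 3.44 with hsa-miR-205-5p, 5.48 and 5.47 with hsa-miR-214-3p and 4.85 and 5.07 in the scrambled control, lowest with hsa-miR-205-5p without overlap, by −1.99. CCNA2, UBE2C and RACGAP1 fell by 1.41, 1.33 and 1.30, NEK2 by 2.32 with signal on 1 of 2 hsa-miR-205-5p arrays, and CENPA was at least 1.92-fold lower. The proliferation marker MKI67 was not called at −0.99, just short of 2-fold on its brightest probe. That probe read 3.34 and 3.24 with hsa-miR-205-5p against 4.29 and 4.26 with hsa-miR-214-3p. Its other probes were called lower, at −1.99 and −3.70, the latter with signal on 1 of 2 hsa-miR-205-5p arrays. CDK1, CCNB1 and CCNB2 were not called at −0.80, −0.61 and −0.78. PTTG1, BIRC5 and STMN1 were close to 0, at 0.11, −0.05 and 0.18.

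**Figure D4:**
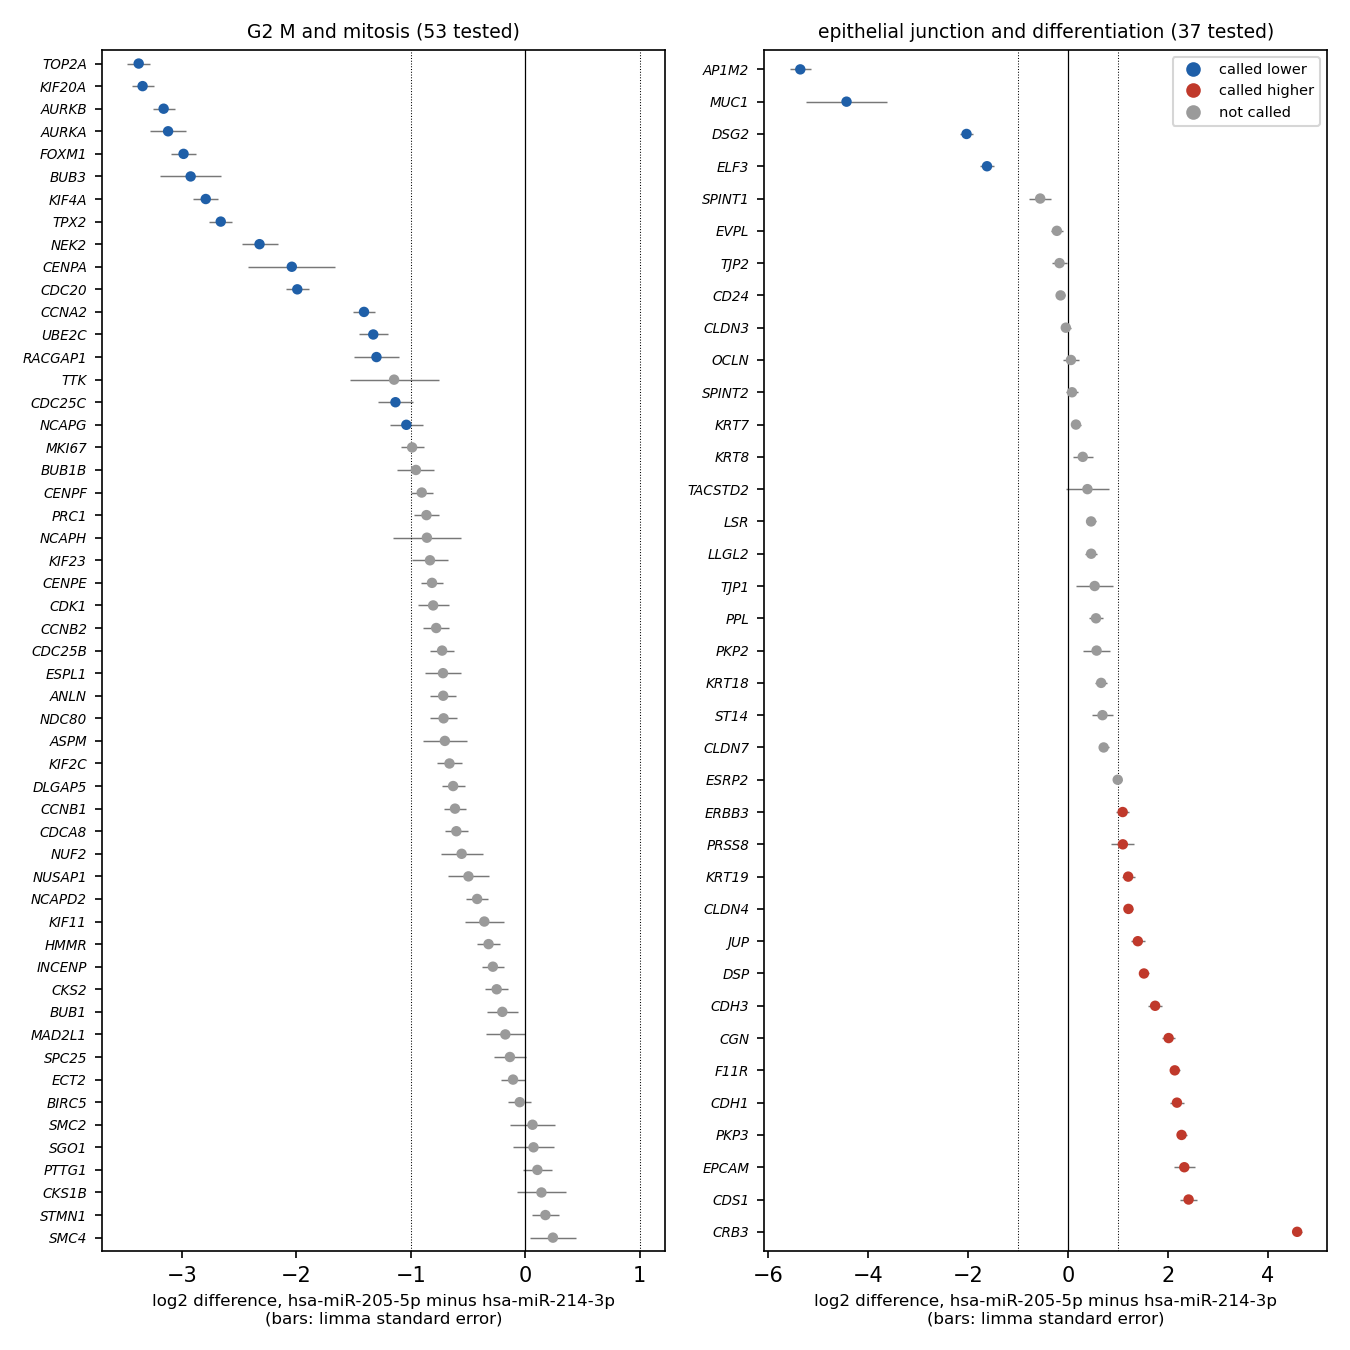
Difference between the precursors in log2, with the limma standard error as a bar, for genes of mitosis (left) and epithelial junctions and differentiation (right), called genes in color. Most mitotic genes lie below 0, down to TOP2A at −3.38, while epithelial genes run from AP1M2 at −5.36 to CRB3, whose arrays with hsa-miR-214-3p were near background.

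Of 52 S phase and DNA replication genes tested, 7 (13.5%, against 13.1% of all genes) were called lower, 2 higher (3.85%, against 10.4%) and 43 in neither direction, with a median of −0.07. The lower count was 2 with normexp and without hsa-miR-214-3p replicate 2 and 4 without hsa-miR-205-5p replicate 2 and without hsa-miR-214-3p replicate 1. ORC6, of the origin recognition complex, read −0.25 and −0.21 with hsa-miR-205-5p, 3.23 and 3.28 with hsa-miR-214-3p and 1.89 and 2.79 in the scrambled control, and the groups did not overlap. RRM2, the small subunit of ribonucleotide reductase, read 0.28 and −0.82 with hsa-miR-205-5p, 2.42 and 2.32 with hsa-miR-214-3p and 1.26 and 2.91 in the scrambled control, with its hsa-miR-205-5p replicates more than 1 apart, and limma gave −2.64 (standard error 0.40, adjusted p = 0.0108). FEN1 fell by 1.45 and MCM10 by 1.22, and RFC2 by 2.14 with signal on 1 of 2 hsa-miR-205-5p arrays. PCNA, MCM2 and MCM3 were not called, at 0.43, −0.40 and 0.91, while PRIM2 and UNG were 1.14 and 1.04 higher.

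Among 23 G1 cyclins, kinases and inhibitors, 4 (17.4%, against 13.1% of all genes) were called lower, 0 higher (against 10.4%) and 19 in neither direction, with a median of −0.34, and the lower count was 2 without hsa-miR-214-3p replicate 1 and 8 after scaling to the median. CDC25A, a phosphatase that activates cyclin-dependent kinases, read 1.31 and 1.49 with hsa-miR-205-5p, 3.44 and 3.62 with hsa-miR-214-3p and 1.72 and 3.79 in the scrambled control. It was lowest with hsa-miR-205-5p, the control replicates spanned most of the range, and the difference was −2.13. CDKN1B, the inhibitor p27, read 3.37 and 3.45 with hsa-miR-205-5p, 4.82 and 5.05 with hsa-miR-214-3p and 4.21 and 4.05 in the scrambled control. Controls lay between the precursors, both probes were called, and limma gave −1.52 (standard error 0.13, adjusted p = 0.00353). CDKN2C was also called lower, CCND3 fell by 1.07, and CCND1, CDKN1A and MYC were not called at −0.93, −0.81 and 0.46. Of 17 histone genes, 1 (5.88%, against 13.1% of all genes) was called lower and 0 higher (against 10.4%). The lower gene was H2BC4, by 1.03. The median of 0.07 was −0.15 after scaling to the median, −0.16 with quantile normalization, −0.16 in the authors' table and −0.01 without hsa-miR-205-5p replicate 1.

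Of 29 apoptosis genes tested, 5 (17.2%, against 13.1% of all genes) were called lower, 4 higher (13.8%, against 10.4%) and 20 in neither direction. The median of −0.11 was 0.03 without hsa-miR-205-5p replicate 2. Lower calls numbered 2 with normexp and 3 without hsa-miR-214-3p replicate 1 and without hsa-miR-214-3p replicate 2, and higher calls 1 after scaling to the median and 2 with normexp, without hsa-miR-214-3p replicate 1 and without hsa-miR-214-3p replicate 2. MCL1, which protects from apoptosis, read −0.38 and −0.55 with hsa-miR-205-5p, 1.69 and 1.68 with hsa-miR-214-3p and −0.04 and 1.65 in the scrambled control, low with hsa-miR-205-5p but with control replicates far apart, and differed by −2.15 (standard error 0.11, adjusted p = 0.00226) in limma. BAK1 and CASP2 fell by 1.51 and 1.02. BIK, which promotes apoptosis, read 2.63 and 2.50 with hsa-miR-205-5p, 0.29 and 0.16 with hsa-miR-214-3p and 0.82 and 0.95 in the scrambled control. Only hsa-miR-205-5p was high, by 2.34. CASP9 and BCL2A1 were 1.09 and 1.11 higher, XIAP was called higher as well, while BCL2L1, BAX and BBC3 were not called at −0.66, 0.07 and 0.50.

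Of 36 interferon-response genes tested, 7 (19.4%, against 13.1% of all genes) were called lower, 7 higher (19.4%, against 10.4%) and 22 in neither direction, with a median of 0.37. That median was 0.14 after scaling to the median and 0.17 without hsa-miR-205-5p replicate 1. Among 31 with signal on all 4 arrays, 4 were lower and 6 higher. Lower calls numbered 4 with all 6 arrays in the fit and with normexp, and higher calls 3 after scaling to the median and with normexp and 4 with quantile normalization and in the authors' table. IFIT3 read 2.17 and 1.63 with hsa-miR-205-5p, 5.26 and 5.33 with hsa-miR-214-3p and 3.85 and 5.01 in the scrambled control, with hsa-miR-205-5p the low group, by −3.39 (standard error 0.21, adjusted p = 0.00255) in limma. The transcription factor gene IRF1 read 1.12 and 0.85 with hsa-miR-205-5p, 3.54 and 3.64 with hsa-miR-214-3p and 2.73 and 3.36 in the scrambled control, in the same layout, by −2.60, and UBE2L6 and IFI35 fell by 2.41 and 1.55. PARP9, XAF1 and IFI44L were lower by at least 3.36, 1.62 and 1.34-fold. PARP14, RIGI and ISG20 were 1.54, 1.22 and 1.11 higher, IFIT1 and IRF7 1.07 and 1.05, and IFNL1 1.94 with signal on 1 of 2 hsa-miR-214-3p arrays. MX1 and ISG15 were not called at 0.84 and 0.85.

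Of 18 HLA class I and antigen-processing genes tested, 4 (22.2%, against 13.1% of all genes) were called lower, 1 higher (5.56%, against 10.4%) and 13 in neither direction, and the median of 0.07 was −0.15 after scaling to the median, −0.17 with quantile normalization, −0.06 with normexp, −0.16 in the authors' table and −0.30 without hsa-miR-205-5p replicate 2. PSMB8, an immunoproteasome subunit, read 0.48 and 0.49 with hsa-miR-205-5p, 3.27 and 3.30 with hsa-miR-214-3p and 2.69 and 3.95 in the scrambled control. It was low with hsa-miR-205-5p alone, the control replicates were more than 1 apart, and the difference was −2.80. PSMB9 and the peptide-trimming enzyme gene ERAP2 fell by 2.00 and 2.31, and HLA-F by 1.33. NLRC5, an activator of HLA class I genes, was 1.17 higher. B2M and HLA-C were not called at −0.55 and 0.98.

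Of 23 genes of cytokines, chemokines and NF-κB signaling tested, 0 (against 13.1% of all genes) were called lower, 9 higher (39.1%, against 10.4%) and 14 in neither direction, with a median of 0.60, and 5 were higher with normexp. Signal on all 4 arrays was seen for 20 of them, 7 higher. In 16 (69.6%) the hsa-miR-205-5p arrays were above both others, against 46.2% of all genes. IL24 read 3.15 and 3.13 with hsa-miR-205-5p, 0.30 and 0.24 with hsa-miR-214-3p and 1.44 and 1.61 in the scrambled control, with the control between the precursors, and was 2.87 (standard error 0.10, adjusted p = 0.0022) higher in limma. IL11 read 4.04 and 3.73 with hsa-miR-205-5p, 2.23 and 2.07 with hsa-miR-214-3p and 2.81 and 2.47 in the scrambled control. All groups were apart, in the same order, with 1.74 between precursors. ICAM1, an adhesion molecule for leukocytes, read 3.49 and 3.43 with hsa-miR-205-5p, 2.13 and 2.08 with hsa-miR-214-3p and 1.39 and 1.18 in the scrambled control, so both precursors were above the controls and hsa-miR-205-5p by more. CXCL1, CXCL2 and RELB were 1.29, 1.14 and 1.41 higher, and IRAK2 and TRAF1 by at least 1.78 and 3.47-fold. IL6 and IL1B were not called at 0.50 and 0.41.

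Of 39 tested genes of the endoplasmic reticulum and its stress response, 5 (12.8%, against 13.1% of all genes) were called lower, 3 higher (7.69%, against 10.4%) and 31 in neither direction, and the median of 0.19 was −0.03 after scaling to the median. Of 37 with signal on all 4 arrays, 3 were lower and 3 higher. Other fits changed the lower count to 3 with normexp, without hsa-miR-214-3p replicate 1 and without hsa-miR-214-3p replicate 2, and the higher count to 1 with normexp. PDIA6, a disulfide isomerase gene, read 2.35 and 2.16 with hsa-miR-205-5p, 4.59 and 4.55 with hsa-miR-214-3p and 3.63 and 4.39 in the scrambled control. It was lowest with hsa-miR-205-5p by −2.32, HYOU1 fell by 2.04, and DDIT3 and EDEM1 by 2.56 and 1.30 with signal on 1 of 2 hsa-miR-205-5p arrays. CHAC1, which degrades glutathione, was highest with hsa-miR-205-5p by 2.59 (standard error 0.10, adjusted p = 0.0022) in limma, and its other probe gave 0.83. SPCS3 was 1.16 higher, and HSPA5, HSP90B1 and ATF4 were not called at 0.20, 0.30 and −0.28.

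Of 47 genes of coat complexes and Golgi traffic, 9 (19.1%, against 13.1% of all genes) were called lower, 6 higher (12.8%, against 10.4%) and 32 in neither direction, and the median of 0.22 was −0.01 after scaling to the median. The lower count was 14 after scaling to the median, and the higher count 3 with normexp. COPG1, a COPI coat subunit, read 0.12 and −0.03 with hsa-miR-205-5p, 1.89 and 1.92 with hsa-miR-214-3p and 1.01 and 1.90 in the scrambled control. It was lowest with hsa-miR-205-5p by −1.86, and ARF1 and KDELR1 fell by 1.53 and 1.38. SEC24C, of the COPII coat, read 8.39 and 8.39 with hsa-miR-205-5p, 6.63 and 6.71 with hsa-miR-214-3p and 7.84 and 7.54 in the scrambled control, lowest with hsa-miR-214-3p without overlap, and 1.72 (standard error 0.10, adjusted p = 0.00241) apart in limma. ARF5, AP1G1 and SEC24D were 1.56, 1.26 and 1.15 higher, and COPA and COPB1 were not called at 0.59 and 0.83.

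For 39 proteasome genes, 8 (20.5%, against 13.1% of all genes) were called lower, 2 higher (5.13%, against 10.4%) and 29 in neither direction, and the median of 0.03 was −0.20 after scaling to the median, −0.18 with quantile normalization, −0.06 with normexp, −0.18 in the authors' table, −0.01 without hsa-miR-205-5p replicate 1, −0.11 without hsa-miR-205-5p replicate 2 and −0.13 without hsa-miR-214-3p replicate 1. PSMC5, an ATPase of the proteasome cap, read 0.26 and 0.22 with hsa-miR-205-5p, 3.12 and 3.03 with hsa-miR-214-3p and 2.47 and 3.47 in the scrambled control, and PSMB5, a catalytic subunit, read 4.94 and 4.93 with hsa-miR-205-5p, 7.71 and 7.80 with hsa-miR-214-3p and 6.52 and 7.58 in the scrambled control. Both were low with hsa-miR-205-5p alone, by −2.83 and −2.82. PSMC3 and PSMC4 fell by 1.96 and 1.58, while PSMA1 was 1.37 higher. For 22 tRNA synthetase genes, 4 (18.2%, against 13.1% of all genes) were called lower, 1 higher (4.55%, against 10.4%) and 17 in neither direction, with 2 lower with normexp, and the median of 0.22 was 0.00 after scaling to the median. Of 20 with signal on all 4 arrays, 2 were lower and 1 was higher. YARS1, the tyrosyl enzyme, read −0.07 and −0.03 with hsa-miR-205-5p, 2.96 and 2.87 with hsa-miR-214-3p and 2.57 and 3.28 in the scrambled control. Only hsa-miR-205-5p was low, by −2.96 (standard error 0.10, adjusted p = 0.0022) in limma. AARS1 fell by 1.96, CARS1 by 1.64 with signal on 1 of 2 hsa-miR-205-5p arrays, and GARS1 by at least 2.8-fold.

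Of 20 glycolysis genes tested, 8 (40%, against 13.1% of all genes) were called lower, 0 higher (against 10.4%) and 12 in neither direction, with a median of −0.37, and 1 was called higher without hsa-miR-205-5p replicate 2. ENO1 read 6.65 and 6.49 with hsa-miR-205-5p, 8.61 and 8.65 with hsa-miR-214-3p and 8.26 and 8.47 in the scrambled control, and the control was close to hsa-miR-214-3p. Its difference was −2.06 (standard error 0.11, adjusted p = 0.00231) in limma. ENO2, the neuronal enolase, fell by 3.25, PKM by 1.48, HK1 by 1.36 and PFKFB4 by 1.34. LDHA fell by 1.24 with control replicates of 5.33 and 7.37, and both its probes were called. PGK1, GPI and SLC2A1 were not called at 0.87, 0.66 and 0.76. For 15 hypoxia-response genes, 2 (13.3%, against 13.1% of all genes) were called lower, 1 higher (6.67%, against 10.4%) and 12 in neither direction, with a median of 0.38: BNIP3L and NDRG1 fell by 1.47 and 1.03, VEGFA was higher, and another BNIP3L probe gave 0.40.

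Of 32 genes of cholesterol and fatty acid synthesis, 7 (21.9%, against 13.1% of all genes) were called lower, 1 higher (3.12%, against 10.4%) and 24 in neither direction, with a median of −0.10. Signal on all 4 arrays left 29 genes, 4 lower and 1 higher. The number of lower genes was 1 with normexp, 3 without hsa-miR-214-3p replicate 1 and 4 without hsa-miR-214-3p replicate 2. SCD, a fatty acid desaturase, read 0.26 and 0.04 with hsa-miR-205-5p, 1.82 and 1.74 with hsa-miR-214-3p and 0.49 and 2.21 in the scrambled control. The lowest group was hsa-miR-205-5p, at −1.63, though control replicate 1 was close to it. IDI1 and CYP51A1 fell by 1.38 and 1.02, and HSD17B7 and INSIG1 were lower by at least 5.18 and 2.52-fold. HMGCS1 and FASN were not called at −0.44 and −0.09. For 27 antioxidant genes, 3 (11.1%, against 13.1% of all genes) were called lower, 0 higher (against 10.4%) and 24 in neither direction, with a median of −0.22, and the lower count was 5 after scaling to the 75th percentile of detected probes, 6 with quantile normalization and 7 after scaling to the median, in the authors' table and without hsa-miR-205-5p replicate 1. PGD of the pentose phosphate pathway read 1.71 and 1.93 with hsa-miR-205-5p, 4.57 and 4.75 with hsa-miR-214-3p and 4.35 and 4.96 in the scrambled control, low with hsa-miR-205-5p alone by −2.84 (standard error 0.14, adjusted p = 0.00222) in limma. ALDH3A1 read −0.45 and −0.48 with hsa-miR-205-5p, 0.94 and 1.00 with hsa-miR-214-3p and 2.73 and 2.63 in the scrambled control, where both precursors were below the controls. GCLM, HMOX1 and TXN were not called at −0.56, −0.22 and −0.06.

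Of 30 genes of lysosomes, cathepsins and cystatins tested, 10 (33.3%, against 13.1% of all genes) were called lower, 2 higher (6.67%, against 10.4%) and 18 in neither direction, with a median of −0.23. HEXA, a subunit of the hexosaminidase enzymes, read 2.15 and 1.67 with hsa-miR-205-5p, 4.20 and 4.25 with hsa-miR-214-3p and 3.78 and 3.89 in the scrambled control, lowest with hsa-miR-205-5p and without overlap, by −2.32 (standard error 0.19, adjusted p = 0.00346) in limma. PSAP, CTSL and CTSD fell by 1.99, 1.55 and 1.38. CST1, a secreted cystatin gene, read 2.68 and 2.57 with hsa-miR-205-5p, 5.12 and 5.17 with hsa-miR-214-3p and 5.13 and 5.47 in the scrambled control, low with hsa-miR-205-5p alone by −2.52, and CST2 and CST3 fell by 2.88 and 1.38, although another CST3 probe gave 0.12. CTSV was 1.27 higher with signal on 1 of 2 hsa-miR-214-3p arrays, and GRN was the other higher gene. LAMP1 and GLB1 were not called at −0.11 and 0.12.

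Of 64 cytosolic ribosomal proteins, 4 (6.25%, against 13.1% of all genes) were called lower, 0 higher (against 10.4%) and 60 in neither direction, and the median of 0.20 was −0.03 after scaling to the median, −0.05 with quantile normalization and −0.03 in the authors' table. RPS3 read 3.40 and 3.36 with hsa-miR-205-5p, 6.24 and 6.21 with hsa-miR-214-3p and 5.99 and 6.58 in the scrambled control. It was low with hsa-miR-205-5p alone, by −2.84 (standard error 0.10, adjusted p = 0.0022) in limma, whereas most others, such as RPL5 at 0.20 and RPS6 at 0.51, were not called. RPS9 was called lower, with replicates of 6.18 and 7.07 with hsa-miR-205-5p against 8.13 and 8.13 with hsa-miR-214-3p. Of 76 mitochondrial ribosomal proteins, 9 (11.8%, against 13.1% of all genes) were called lower, 9 higher (11.8%, against 10.4%) and 58 in neither direction, with a median of 0.32, and the higher count was 4 without hsa-miR-214-3p replicate 2 and 5 after scaling to the median, with normexp and without hsa-miR-205-5p replicate 2. In 50 (65.8%) the hsa-miR-205-5p arrays were above both others, against 46.2% of all genes. MRPL17 read 2.78 and 2.85 with hsa-miR-205-5p, 5.55 and 5.62 with hsa-miR-214-3p and 4.82 and 5.72 in the scrambled control, low with hsa-miR-205-5p by −2.77, and MRPS7 and MRPL27 fell by 2.32 and 1.88. MRPL30 and MRPL2 were 1.77 and 1.58 higher.

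Of 75 respiratory chain and ATP synthase genes tested, 9 (12%, against 13.1% of all genes) were called lower, 1 higher (1.33%, against 10.4%) and 65 in neither direction, with a median of 0.40. For 73 with signal on all 4 arrays the counts were 7 lower and 1 higher. Lower calls numbered 5 without hsa-miR-214-3p replicate 1 and without hsa-miR-214-3p replicate 2, but stayed at 9 after scaling to the median and with quantile normalization. In 50 (66.7%) the hsa-miR-205-5p arrays were above both others, against 46.2% of all genes. NDUFA13 read 4.74 and 4.64 with hsa-miR-205-5p, 6.93 and 6.93 with hsa-miR-214-3p and 6.41 and 6.84 in the scrambled control, and COX4I1 read 3.77 and 3.89 with hsa-miR-205-5p, 6.53 and 6.47 with hsa-miR-214-3p and 5.82 and 6.28 in the scrambled control. Both were lowest with hsa-miR-205-5p without overlap, at −2.24 and −2.67. ATP5F1B and SDHB fell by 1.56 and 1.31, and NDUFA9 by at least 1.73-fold. NDUFAB1 alone was higher, at 5.92 and 5.85 with hsa-miR-205-5p against 4.94 and 4.16 with hsa-miR-214-3p, with limma giving 1.34 (standard error 0.29, adjusted p = 0.0255). COX7B, UQCRFS1 and NDUFA1 were not called at 0.91, 0.97 and 0.94.

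For 51 splicing factors, 5 (9.8%, against 13.1% of all genes) were called lower, 2 higher (3.92%, against 10.4%) and 44 in neither direction, and the median of 0.05 was −0.18 after scaling to the median, −0.13 with quantile normalization, −0.08 with normexp and −0.12 in the authors' table. With other fits the lower genes were 3 with all 6 arrays in the fit and without hsa-miR-214-3p replicate 1. SF3B2 read 3.57 and 3.45 with hsa-miR-205-5p, 5.92 and 6.29 with hsa-miR-214-3p and 5.48 and 6.11 in the scrambled control, low with hsa-miR-205-5p alone by −2.59 (standard error 0.17, adjusted p = 0.00257) in limma. HNRNPDL and SRSF7 fell by 1.67 and 1.16, and PTBP1 by at least 1.85-fold. Of 49 genes of nuclear pores and transport, 6 (12.2%, against 13.1% of all genes) were called lower, 6 higher (12.2%, against 10.4%) and 37 in neither direction, with a median of 0.23, and 3 were higher after scaling to the median. NUTF2, which carries Ran into the nucleus, read 2.35 and 2.39 with hsa-miR-205-5p, 5.18 and 5.33 with hsa-miR-214-3p and 3.58 and 4.70 in the scrambled control. The precursors were −2.88 apart with controls between them, and NUP93 and NUP214 fell by 1.64 and 1.59. KPNA6, NDC1 and NUP54 were 1.78, 1.54 and 1.52 higher.

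For 27 genes of small nucleolar and Cajal body RNAs with their proteins, 1 (3.7%, against 13.1% of all genes) was called lower, 3 higher (11.1%, against 10.4%) and 23 in neither direction, with a median of 0.46, and 1 higher call with normexp. Over all 157 small nucleolar RNA genes tested, 23 (14.6%) were lower and 10 (6.37%) higher. SNORA70B read −1.39 and −1.11 with hsa-miR-205-5p, 2.48 and 2.12 with hsa-miR-214-3p and 1.78 and 2.62 in the scrambled control, low with hsa-miR-205-5p alone. SCARNA9 read 2.55 and 1.89 with hsa-miR-205-5p, 0.46 and 0.33 with hsa-miR-214-3p and 2.47 and 1.91 in the scrambled control, low with hsa-miR-214-3p alone, by 1.83 (standard error 0.25, adjusted p = 0.00879) in limma. SCARNA13 and SCARNA17 were 1.31 and 1.22 higher. For 12 genes of miRNA processing, 2 (16.7%, against 13.1% of all genes) were called lower, 0 higher (against 10.4%) and 10 in neither direction, and the median of 0.26 was −0.01 without hsa-miR-214-3p replicate 1. XPO5, which exports miRNA precursors, read 1.94 and 2.00 with hsa-miR-205-5p, 3.07 and 3.20 with hsa-miR-214-3p and 2.25 and 2.94 in the scrambled control, and TNRC6A read 2.13 and 2.13 with hsa-miR-205-5p, 3.44 and 3.50 with hsa-miR-214-3p and 0.74 and 2.52 in the scrambled control. In both, hsa-miR-214-3p was the highest group, by 1.17 and 1.34 over hsa-miR-205-5p. AGO2 and DICER1 were not called at 0.79 and 0.64, and DICER1 replicates with hsa-miR-214-3p were more than 1 apart.

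In the TGF-β, BMP and activin list, of 28 genes 5 (17.9%, against 13.1% of all genes) were called lower, 0 higher (against 10.4%) and 23 in neither direction, with a median of −0.28, and 3 were lower with normexp. ID3, an inhibitor of helix-loop-helix factors, read 3.73 and 3.82 with hsa-miR-205-5p, 5.63 and 5.57 with hsa-miR-214-3p and 5.06 and 4.94 in the scrambled control, and BMP4 read 3.57 and 3.66 with hsa-miR-205-5p, 5.20 and 5.08 with hsa-miR-214-3p and 4.78 and 4.50 in the scrambled control. Each was lowest with hsa-miR-205-5p and highest with hsa-miR-214-3p, by −1.82 and −1.52. ID2 fell by 1.52 and BMP1 by 1.04, and TGFB1, TGFBR2 and SMAD3 were not called at 0.18, −0.52 and 0.30. The list of ERBB receptors and ligands also holds ERRFI1, which is neither. Of its 9 genes, 1 (11.1%, against 13.1% of all genes) was called lower, 3 higher (33.3%, against 10.4%) and 5 in neither direction, with a median of 0.98. The higher count was 0 after scaling to the median and 1 with normexp. HBEGF read 0.78 and 0.79 with hsa-miR-205-5p, 3.30 and 3.34 with hsa-miR-214-3p and 2.68 and 3.88 in the scrambled control, low with hsa-miR-205-5p alone by −2.54 (standard error 0.09, adjusted p = 0.0022) in limma. ERBB2 and ERRFI1 were 1.08 and 1.15 higher, and EGFR was not called at 0.98. Other EGFR probes disagreed, at 1.30, which was called higher, and −0.33.

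Of 27 genes of MAPK output and feedback, 6 (22.2%, against 13.1% of all genes) were called lower, 2 higher (7.41%, against 10.4%) and 19 in neither direction, and the median of 0.13 was −0.09 after scaling to the median. With signal on all 4 arrays there were 24, 3 of them lower and 2 higher. The lower count was 1 with normexp and 3 without hsa-miR-214-3p replicate 1. SPRY4, a feedback inhibitor, read 1.35 and 1.22 with hsa-miR-205-5p, 2.89 and 2.96 with hsa-miR-214-3p and 2.36 and 3.70 in the scrambled control. It was lowest with hsa-miR-205-5p by −1.64 (standard error 0.11, adjusted p = 0.00263) in limma, and ETV4 fell by 1.59. ETV5, SPRED2 and PHLDA1 were lower by at least 1.31, 3.09 and 1.66-fold. EGR1 was 1.11 higher, and DUSP6 and MYC were not called at 0.94 and 0.46. For 23 Hippo and YAP genes, 0 (against 13.1% of all genes) were called lower, 2 higher (8.7%, against 10.4%) and 21 in neither direction, and the median of 0.10 was −0.13 after scaling to the median, −0.09 with quantile normalization and −0.09 in the authors' table. SAV1, an adaptor of the Hippo kinases, read 4.14 and 4.07 with hsa-miR-205-5p, 2.60 and 2.57 with hsa-miR-214-3p and 2.32 and 2.35 in the scrambled control. Only hsa-miR-205-5p was high, by 1.51, while YAP1 and CCN1 were not called at −0.41 and 0.10.

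**Figure D5:**
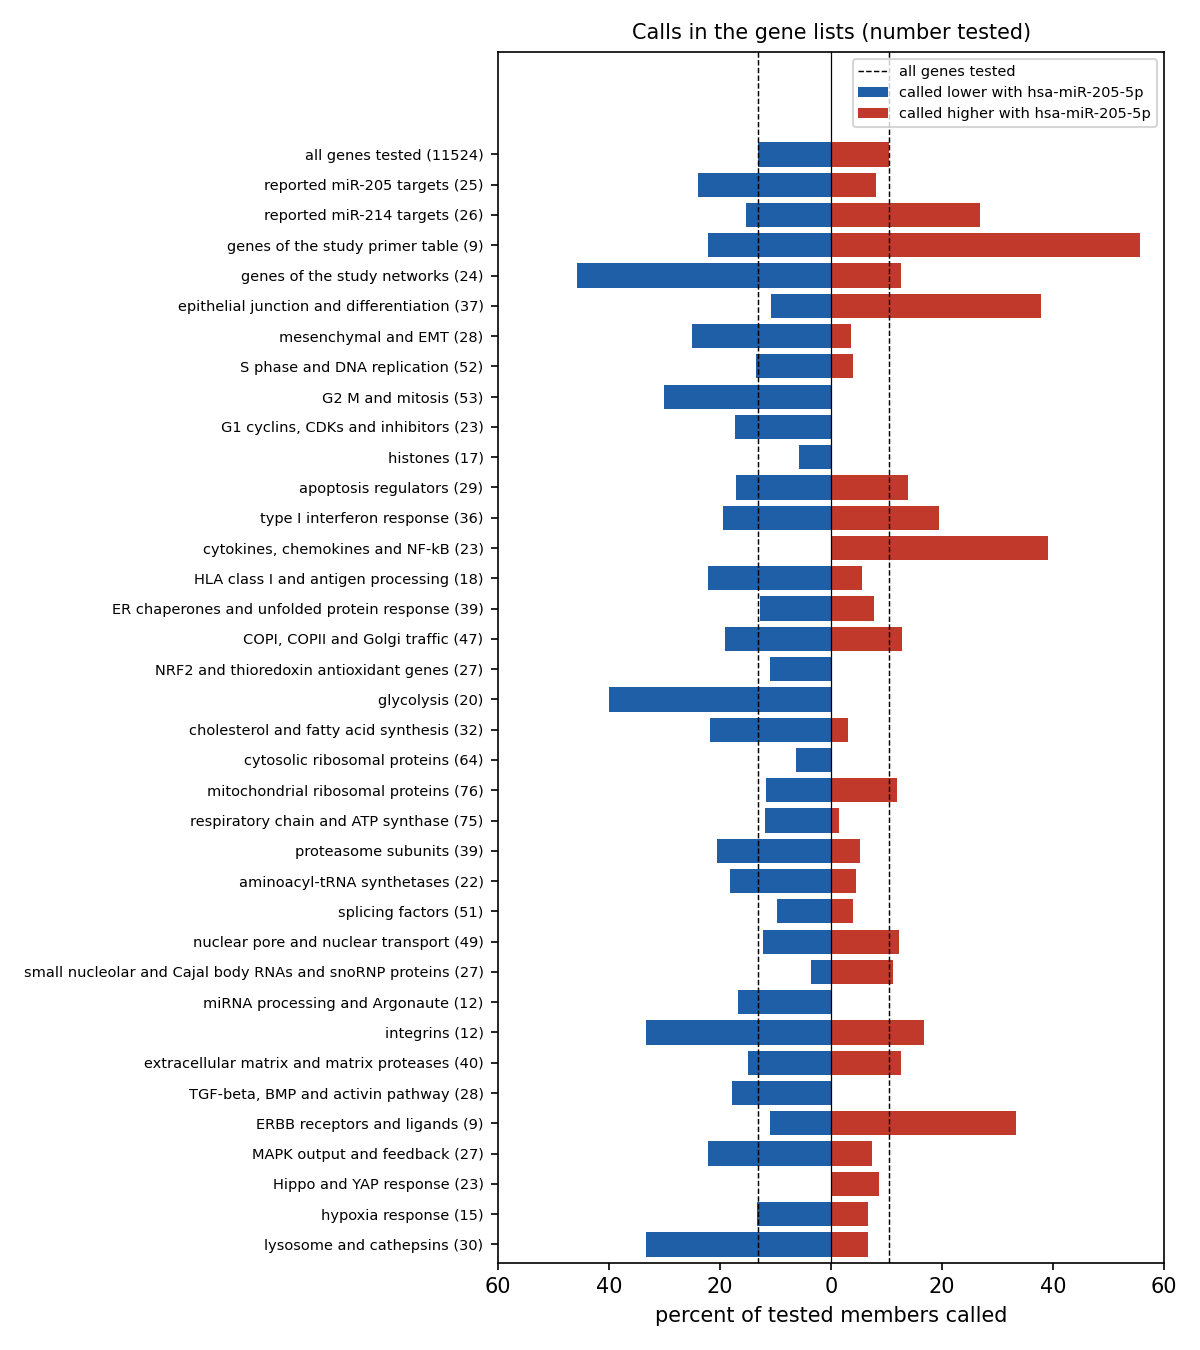
Percent of the tested members of gene lists called lower (left, blue) and higher (right, red) with hsa-miR-205-5p, with dashed lines at the 13.1% and 10.4% of all genes. The mitosis list has 30.2% lower and 0 higher, the epithelial list 37.8% higher.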

How the data were processed

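The authors deposited the Feature Extraction output of each array, in which the processed signal is a linear intensity after background subtraction, without normalization between arrays, and a separate table of log2 values. The submitters' processing notes name Agilent Feature Extraction 11.0. Here log2 of the processed signal was used, control and outlier spots were dropped, spots of a probe were averaged, and the 75th percentile of each array was subtracted. Of 50590 probes on all 4 arrays, 30271 had a RefSeq symbol by accession, used for names only since the array design has another genome build. The filter kept 17439 probes, 84.1% with a symbol, and dropped 33151. The software was limma 3.58.1 in R 4.3.3, version 1.17.8 of data.table for reading files, and matplotlib 3.10.9 for plots.

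The model was fitted to the 4 arrays by lmFit and eBayes of limma, with 2 residual degrees of freedom and 1.98 prior degrees of freedom, and Benjamini-Hochberg adjustment covered all 17439 kept probes. With 2 arrays against 2, an exact permutation test cannot give p under 0.333. A limit of at least N-fold compares the bright group with the background level where both arrays of the other group were close to background.

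Genes named include, in each direction, the 10 furthest apart with signal on all 4 arrays, the 5 brightest called, the 5 with the largest limit and the 5 furthest apart by the median of at least 3 probes, all called. They also include reported targets, genes the study names, and members of the gene lists. The members and lists were chosen with earlier results of these data known. Alternatives were all 6 arrays in the fit, the replicate number as a block, scaling to the median or to the 75th percentile of detected probes, quantile normalization, normexp, the authors' table, no filter and a strict filter, limma's trend with robust spread, unadjusted p, no fold limit, the methods' t-test, other choices among probes of a gene, and each array left out. normexp was planned on the mean signal, but the files hold only the median signal. Mature miRNAs are not measured by these arrays, no UTR sequences were at hand, and target predictions were not used. Results for a few genes and 2 gene lists are not shown.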

Additional observations from a re-analysis of the deposited data

How the results depend on the processing

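Against 1506 lower genes, 1193 higher genes and 4162 probes called, normexp gave 722, 436 and 1562, no filter 1003, 673 and 2534, no fold limit 2770, 3462 and 9143, and the methods' test with adjustment 970, 684 and 2319. List counts given with normexp belong beside its 722 and 436 genes, not beside the 13.1% and 10.4% of the main fit. Scaling to the median gave 2024 lower and 730 higher genes, and list counts given after that scaling belong beside these. The replicate block gave 1486 and 1163. Leaving out 1 array gave 1043 to 1733 lower genes, 811 to 1353 higher genes and 2752 to 4510 probes, the fewest without hsa-miR-214-3p replicate 2; the lone array was assumed to vary like the other group. The mean distance between precursors was 1.02, and 1.06 after scaling to the median, 0.627 with normexp, 0.907 with no filter and 0.895 with a strict filter. Of 24 list counts of 1 or 2 calls, 15 moved by more than 1.5-fold when an array was left out, and of 45 counts of at least 3, 13 did. With normexp 15 and 25 of these moved. Of 13 list counts of 0, 9 moved when an array was left out. Of 346 named genes, 129 of the 229 called kept their call in the 11 refits tried on them (replicate block, all 6 arrays, 5 scalings, backgrounds or tables and 4 left-out arrays), and 0 reversed. Over all genes, the median over probes turned 1 call to the opposite, and the probe with the smallest p 12. Arrays that share a replicate number need not be paired: the difference of replicate 1 from replicate 2 correlated between both precursors at 0.0887 (Pearson) and 0.119 (Spearman) over 17439 probes, for 2 pairs. With 2 arrays per group the spread of a gene is poorly known, slide position follows the precursor, and genes near background have unreliable folds.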

Other observations

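By biotype, protein-coding genes had 1416 lower (13.3%) and 1079 higher calls (10.1%) among 10651, with a median of 0.11. That median turns negative after scaling to the median, which shifts every difference by about −0.22. Long non-coding RNA genes had 37 lower (8.04%, against 13.1% of all genes) and 81 higher calls (17.6%, against 10.4%) among 460, with a median of 0.31. The lower count was 6 with normexp, 22 without hsa-miR-214-3p replicate 1 and 18 without hsa-miR-214-3p replicate 2, and the higher count 19 with normexp. Small nucleolar RNA genes had 23 lower (14.6%) and 10 higher calls (6.37%) among 157, and transcribed pseudogenes 30 (14.2%) and 14 (6.6%) among 212. With normexp the small nucleolar counts were 14 and 0, those of pseudogenes 13 and 3 and those of protein-coding genes 689 and 412. Higher small nucleolar RNA genes numbered 2 after scaling to the median, 3 without hsa-miR-214-3p replicate 2 and 6 without hsa-miR-214-3p replicate 1. After scaling to the median 655 protein-coding genes were higher and 46 pseudogenes lower, and without hsa-miR-214-3p replicate 1 the pseudogene counts were 18 and 9.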
